A study of Mus musculus with 12 samples.

Results

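RNA of 10 macrophage marker genes was followed in left ventricles of wild-type mice and of mice labelled as Alox5 knockout (Alox5ko), with and without pressure overload. The genes were taken by symbol from the deposited count table: Lyve1, Cd163 and Mrc1 as markers of resident macrophages, Ccr2 and Lgals3 as markers of recruited monocytes and macrophages, and Cd68, Adgre1, Csf1r, Lyz2 and Cx3cr1 as markers of macrophages in general. All 10 were found among the 49492 rows of the table, and all 10 passed the filter on low counts, which 15542 genes passed. The 12 libraries formed 4 groups of 3. Alox5ko_TAC and Alox5ko_NS came from mice with the genotype Alox5ko, and WT_TAC and WT_NS from wild-type (WT) mice. TAC, or transverse aortic constriction, ties down the aortic arch by surgery so that the left ventricle pumps against a higher pressure. NS is the label of the groups without TAC, and the labels do not spell it out. The labels name neither a promoter nor a Cre driver, a strain, an age or the time after TAC. The series' design text speaks of a cardiac deficiency of Alox5 while the labels give the genotype alone, so whether macrophages also carried the deletion is not stated. The labels do not state that the libraries stem from separate animals, so the p-values rest on the spread between libraries, which may be technical.

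Macrophages of the heart come from more than one source. Resident macrophages settle before and around birth and renew themselves locally, carry scavenger receptors such as CD163 and the mannose receptor, and take up dying cells and debris. Recruited macrophages derive from blood monocytes that follow the chemokine CCL2 through its receptor CCR2 into injured or overloaded muscle. Alox5 encodes arachidonate 5-lipoxygenase, which starts the synthesis of leukotrienes and is itself made mainly by myeloid cells.

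None of the 10 markers passed the test in any comparison. Genes were tested with edgeR's quasi-likelihood test and called at an adjusted p (Benjamini-Hochberg over all 15542 genes) under 0.05. With TAC in WT mice, 0 of 10 markers were called, against 0.766% of all genes tested; 2 of 10 had an unadjusted p under 0.05, against 11.9% of all genes. With TAC in Alox5ko mice 0 of 10 were called against 1.34% of genes, and 2 of 10 had an unadjusted p under 0.05 against 14.5%. Between Alox5ko_TAC and WT_TAC 0 of 10 were called against 0.109%, and 4 of 10 had an unadjusted p under 0.05 against 8.49%. Between Alox5ko_NS and WT_NS 0 of 10 were called against 0.0386%, and 1 of 10 had an unadjusted p under 0.05 against 6.36%. For the interaction, which subtracts the WT response to TAC from the Alox5ko response, 0 of 10 were called against 0% of all genes (DESeq2 called 1 gene or 0.00656%, no marker), and 2 of 10 had an unadjusted p under 0.05 against 5.38%. With TAC averaged over both genotypes 0 of 10 were called against 5.1%, and 1 of 10 had an unadjusted p under 0.05 against 19.3%. For Alox5ko averaged over both treatments 0 of 10 were called against 0.154%, and 3 of 10 had an unadjusted p under 0.05 against 9.77%. DESeq2 called Cd163 between Alox5ko_TAC and WT_TAC, where it called 0.38% of genes. It called Cx3cr1 for TAC averaged over both genotypes, with 6.25% of genes, and for Alox5ko averaged over both treatments, with 0.637%, and no marker in the other 4 comparisons. Without the filter on low counts, 28070 genes were tested and edgeR called Cd163, Cx3cr1 and Lyz2 for TAC in WT mice, against 1.92% of genes, and Cx3cr1 for TAC in Alox5ko mice, against 2.69%. Between Alox5ko_TAC and WT_TAC it then called Cd163, Cx3cr1, Lyve1 and Lyz2, against 0.898% of genes. It called Cx3cr1 for TAC averaged over both genotypes, against 4.74%, and Cd163, Cx3cr1 and Lyve1 for Alox5ko averaged over both treatments, against 1.24%. The log2 fold change of Cd163 between Alox5ko_TAC and WT_TAC was 0.69 both with and without the filter. Its edgeR adjusted p was 0.275 with the filter and 6.12e-06 without it, and the cause of this shift was not tested.

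The libraries held 20889431 to 27311196 counts. Alox5 itself fell by 3.28 on the log2 scale in Alox5ko_TAC against WT_TAC (edgeR adjusted p = 5.37e-09) and fell by 3.40 in Alox5ko_NS against WT_NS (edgeR adjusted p = 1.8e-09), as the genotype labels say. RNA of cardiomyocyte markers dominated, with a summed level of 7 genes between 138969 and 174106 CPM (counts scaled to a common library total), against 72.8 to 113.9 CPM for the 5 general macrophage markers together. In such bulk samples, fewer macrophages and less RNA of a marker per macrophage cannot be told apart. Levels of single genes below are CPM with TMM scaling factors, means are given with the SD of 3 libraries. Fold changes are log2 values and carry a standard error (SE).

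Compared per length as deposited RPKM (counts divided by the length of the gene and the library total), Lyz2 was by far the most abundant marker and the 2 recruited markers were the least. Mean RPKM over the 12 libraries was 51.6 for Lyz2, 5.62 for Lyve1, 3.43 for Cd68, 3.23 for Csf1r, 2.70 for Cd163 and 2.06 for Mrc1. It was 1.15 for Adgre1, 1.09 for Cx3cr1, 0.27 for Lgals3 and 0.083 for Ccr2. The ranges over the 12 libraries did not overlap between Lyz2 and Lyve1, between Mrc1 and Adgre1, or between Lgals3 and Ccr2. All other neighbours in this order overlapped. Ccr2 rested on 1 to 24 counts per library and Lgals3 on 7 to 18, while the other 8 markers had at least 35 counts in every library.

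**Figure D1:**
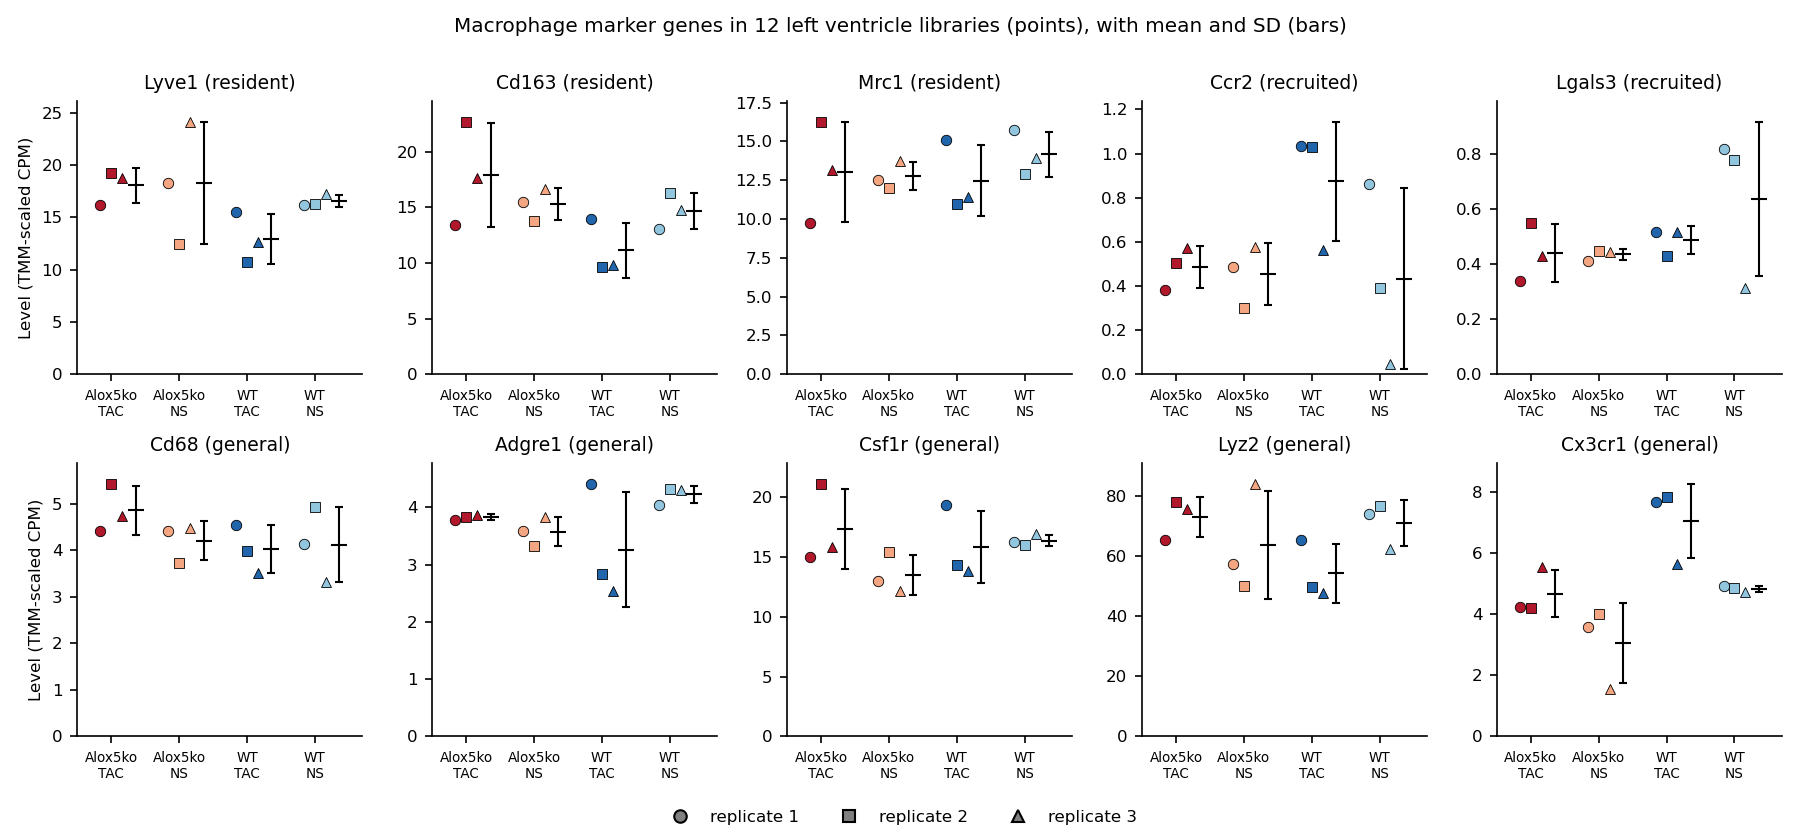
Level (TMM-scaled CPM, y axis from 0) of each of the 10 markers in the 12 libraries; points are libraries, with the marker shape giving the replicate number, and bars show the mean and SD of 3 libraries. Cx3cr1 was above all WT_NS libraries in all 3 WT_TAC libraries (5.64 to 7.85 CPM), and Ccr2 in WT_NS replicate 3 was 0.0449 CPM.

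Of the resident markers, Lyve1 encodes a hyaluronan receptor of tissue macrophages that lymphatic endothelium also carries (chromosome 7, 110850607 to 110863239, mm10). Its level was 16.1, 19.2 and 18.8 CPM in Alox5ko_TAC, against 15.5, 10.7 and 12.6 CPM in WT_TAC. Without TAC the Alox5ko_NS libraries had 18.3, 12.4 and 24.2 CPM, against 16.1, 16.2 and 17.2 CPM in WT_NS. All 3 WT_TAC libraries were lower than all Alox5ko_TAC and all WT_NS libraries, while the Alox5ko_NS libraries overlapped each of the other groups. WT_TAC minus WT_NS was -0.35 (SE 0.200, 95% interval -0.79 to 0.08, edgeR adjusted p = 0.538). Alox5ko_TAC minus Alox5ko_NS was -0.02 (95% interval -0.44 to 0.41). Alox5ko_TAC minus WT_TAC was 0.48 (SE 0.200, 95% interval 0.05 to 0.91, edgeR adjusted p = 0.544).

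Cd163 encodes the scavenger receptor for haptoglobin and haemoglobin complexes and marks resident, M2-like macrophages (chromosome 6, 124304656 to 124330527). Its level was 13.4, 22.7 and 17.6 CPM in Alox5ko_TAC, against 13.9, 9.65 and 9.77 CPM in WT_TAC. In the groups without TAC it was 15.5, 13.8 and 16.7 CPM in Alox5ko_NS, against 13.04, 16.2 and 14.7 CPM in WT_NS. WT_TAC replicates 2 and 3 were the lowest of all libraries and Alox5ko_TAC replicates 2 and 3 the highest, but replicate 1 of the same groups overlapped. Cd163 averaged 17.9 ± 4.68 CPM in Alox5ko_TAC and 11.1 ± 2.45 CPM in WT_TAC (SD, n = 3 each), a log2 fold change of 0.69 (SE 0.181, 95% interval 0.30 to 1.07, edgeR adjusted p = 0.275). This was the smallest adjusted p of any marker between Alox5ko_TAC and WT_TAC. DESeq2 gave an adjusted p of 0.032 for the same difference, and edgeR without Alox5ko_TAC replicate 1 gave 0.86 with an adjusted p of 0.044. With any single library left out its value ran between 0.48 and 0.88. WT_TAC minus WT_NS was -0.40 (edgeR adjusted p = 0.403), Alox5ko_TAC minus Alox5ko_NS was 0.22 (edgeR adjusted p = 0.615), and the interaction was 0.62 (SE 0.253, edgeR adjusted p = 0.876).

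Mrc1 encodes the mannose receptor CD206, an endocytic receptor of resident macrophages (chromosome 2, 14229392 to 14332057). It was 9.76, 16.2 and 13.2 CPM in Alox5ko_TAC, against 15.1, 10.9 and 11.4 CPM in WT_TAC. Alox5ko_NS had 12.5, 11.97 and 13.7 CPM, against 15.7, 12.9 and 13.9 CPM in WT_NS. The groups overlapped in all 4 comparisons. Its fold changes lay between -0.18 (WT_TAC against WT_NS, 95% interval -0.52 to 0.15) and 0.06 (Alox5ko_TAC against WT_TAC, 95% interval -0.27 to 0.40), and changes of more than 0.52 on the log2 scale lay outside the interval in all 4 comparisons. Set side by side, the 3 resident markers were all negative for TAC in WT mice (median -0.35) and 2 of 3 positive for TAC in Alox5ko mice (median 0.03). All 3 were positive between Alox5ko_TAC and WT_TAC (median 0.48) and 2 of 3 between Alox5ko_NS and WT_NS (median 0.06). The medians of all genes tested in the same 4 comparisons were 0.00, 0.00, -0.01 and 0.00. The comparisons share groups, so these signs are not independent of each other.

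Of the recruited markers, Ccr2 encodes the CCL2 receptor that brings monocytes out of the bone marrow and into tissue (chromosome 9, 124101950 to 124113557). It had 9, 11 and 12 counts in Alox5ko_TAC and 13, 8 and 13 in Alox5ko_NS, against 22, 24 and 12 in WT_TAC and 19, 9 and 1 in WT_NS. WT_NS alone thus ran from a single read to 19, and WT_TAC replicate 3 sat with the Alox5ko libraries. Summed counts were 32 in Alox5ko_TAC (exact Poisson 95% interval 21.9 to 45.2), 34 in Alox5ko_NS (23.5 to 47.5), 58 in WT_TAC (44.0 to 75.0) and 29 in WT_NS (19.4 to 41.6), where the intervals cover counting error only. WT_TAC minus WT_NS was 1.02 (SE 0.519, 95% interval -0.07 to 2.11, edgeR adjusted p = 0.465). This value was 0.49 without WT_NS replicate 3 and 1.97 without WT_NS replicate 1 (edgeR adjusted p = 0.821 and 0.204). Alox5ko_TAC minus Alox5ko_NS was 0.10 (95% interval -1.05 to 1.26), and Alox5ko_TAC minus WT_TAC was -0.85 (95% interval -1.93 to 0.22, edgeR adjusted p = 0.70). At this depth a Ccr2 change of up to 4-fold with TAC in WT mice lay within the interval.

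Lgals3 encodes galectin-3, a secreted lectin that macrophages of injured tissue make in quantity (chromosome 14, 47367751 to 47386160). It had 8, 12 and 9 counts in Alox5ko_TAC and 11, 12 and 10 in Alox5ko_NS, against 11, 10 and 11 in WT_TAC and 18, 18 and 7 in WT_NS. Only WT_NS replicates 1 and 2 stood above the rest. WT_TAC minus WT_NS was -0.39 (95% interval -1.21 to 0.43; -0.71 to -0.17 with a single WT_NS library left out) and Alox5ko_TAC minus Alox5ko_NS was 0.01 (95% interval -0.86 to 0.88). Alox5ko_TAC minus WT_TAC was -0.15 (95% interval -1.02 to 0.72) and Alox5ko_NS minus WT_NS was -0.55 (95% interval -1.36 to 0.27). The 2 recruited markers had opposite signs for TAC in WT mice.

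Of the general markers, Csf1r encodes the receptor for CSF1 and IL-34 on which macrophages depend for survival (chromosome 18, 61105572 to 61132149). An exon of Hmgxb3 on the other strand overlaps it, and since no source used here says how strand was treated in counting, reads of the 2 genes may not be told apart. Csf1r was 14.98, 21.2 and 15.8 CPM in Alox5ko_TAC and 12.97, 15.4 and 12.1 CPM in Alox5ko_NS, against 19.4, 14.4 and 13.9 CPM in WT_TAC and 16.3, 15.99 and 16.9 CPM in WT_NS. All Alox5ko_NS libraries were below all WT_NS libraries. Alox5ko_TAC minus Alox5ko_NS was 0.36 (SE 0.141, 95% interval 0.06 to 0.65, edgeR adjusted p = 0.243; 0.19 without Alox5ko_TAC replicate 2), and WT_TAC minus WT_NS was -0.05 (95% interval -0.35 to 0.25). Adgre1, which encodes the adhesion receptor F4/80 (chromosome 17, 57358686 to 57483529), was 3.78, 3.84 and 3.87 CPM in Alox5ko_TAC and 4.41, 2.83 and 2.54 CPM in WT_TAC. Without TAC it had 3.59, 3.32 and 3.83 CPM in Alox5ko_NS, below all 3 WT_NS libraries with 4.04, 4.32 and 4.31 CPM. WT_TAC minus WT_NS was -0.38 (95% interval -0.75 to 0.00, edgeR adjusted p = 0.426), -0.65 without WT_TAC replicate 1 and -0.23 without WT_TAC replicate 3.

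Cd68, a lysosomal glycoprotein of phagocytes (chromosome 11, 69664213 to 69666153), overlapped between groups in all 4 comparisons. It averaged 4.86 ± 0.52 CPM in Alox5ko_TAC and 4.21 ± 0.42 CPM in Alox5ko_NS, and 4.02 ± 0.52 CPM in WT_TAC and 4.13 ± 0.80 CPM in WT_NS (SD, n = 3 each). Its TAC difference was 0.21 in Alox5ko mice (95% interval -0.14 to 0.55) and -0.04 in WT mice (95% interval -0.40 to 0.32). Lyz2, the lysozyme gene of macrophages and neutrophils (chromosome 10, 117277334 to 117282274), was 65.4, 77.7 and 75.5 CPM in Alox5ko_TAC, against 65.2, 49.5 and 47.6 CPM in WT_TAC. Without TAC it had 57.1, 49.9 and 84.0 CPM in Alox5ko_NS, against 73.9, 76.5 and 62.2 CPM in WT_NS. All Alox5ko_TAC libraries were above all WT_TAC libraries in TMM-scaled CPM, by a narrow margin in replicate 1. In deposited RPKM the groups overlapped, with replicate 1 at 51.1 in Alox5ko_TAC and 52.5 in WT_TAC. Alox5ko_TAC minus WT_TAC was 0.43 (SE 0.186, edgeR adjusted p = 0.573), and the interaction was 0.59 (SE 0.262, edgeR adjusted p = 0.92). Its paralog Lyz1 had 3 to 9 counts per library.

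Cx3cr1 stood apart from the other general markers. It encodes the fractalkine receptor, carried by patrolling monocytes and by part of the resident macrophages (chromosome 9, 119901616 to 120069879; a transcript on the other strand, RP24-233B16.6, overlaps an exon). Its level was 4.24, 4.20 and 5.55 CPM in Alox5ko_TAC and 3.59, 3.99 and 1.56 CPM in Alox5ko_NS, against 7.66, 7.85 and 5.64 CPM in WT_TAC and 4.91, 4.84 and 4.71 CPM in WT_NS. Within each genotype all TAC libraries were above all NS libraries, and within each treatment all Alox5ko libraries were below all WT libraries. With TAC averaged over both genotypes the fold change was 0.57 (SE 0.167, 95% interval 0.22 to 0.93, edgeR adjusted p = 0.0591). It was 0.59 in Alox5ko mice (SE 0.244, edgeR adjusted p = 0.267) and 0.55 in WT mice (SE 0.229, edgeR adjusted p = 0.339), with an interaction of 0.04 (95% interval -0.66 to 0.75). Alox5ko averaged over both treatments gave -0.62 (SE 0.167, 95% interval -0.98 to -0.27, edgeR adjusted p = 0.197), with -0.60 under TAC (edgeR adjusted p = 0.463) and -0.64 without it (edgeR adjusted p = 0.686).

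The adjusted p of Cx3cr1 for TAC averaged over both genotypes passed the threshold with DESeq2 (0.0172). It also passed in edgeR without Alox5ko_NS replicate 2 (fold change 0.69, adjusted p = 0.0284), without Alox5ko_NS replicate 3 (0.42, adjusted p = 0.0489) and without WT_TAC replicate 3 (0.64, adjusted p = 0.0434). Without any other single library it did not pass, with a highest adjusted p of 0.147. Alox5ko_NS replicate 3, with 35 reads of Cx3cr1 against 92 to 183 in the other 11 libraries, also had the highest share of mitochondrial counts (21.4%, against 14.6% to 18.7% elsewhere), whose part in the result was not tested. Without this library the Cx3cr1 value was 0.30 for TAC in Alox5ko mice and -0.35 between Alox5ko_NS and WT_NS. For Alox5ko averaged over both treatments, DESeq2 gave an adjusted p of 0.0461, and edgeR with a library left out gave 0.0841 to 0.377.

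**Figure D2:**
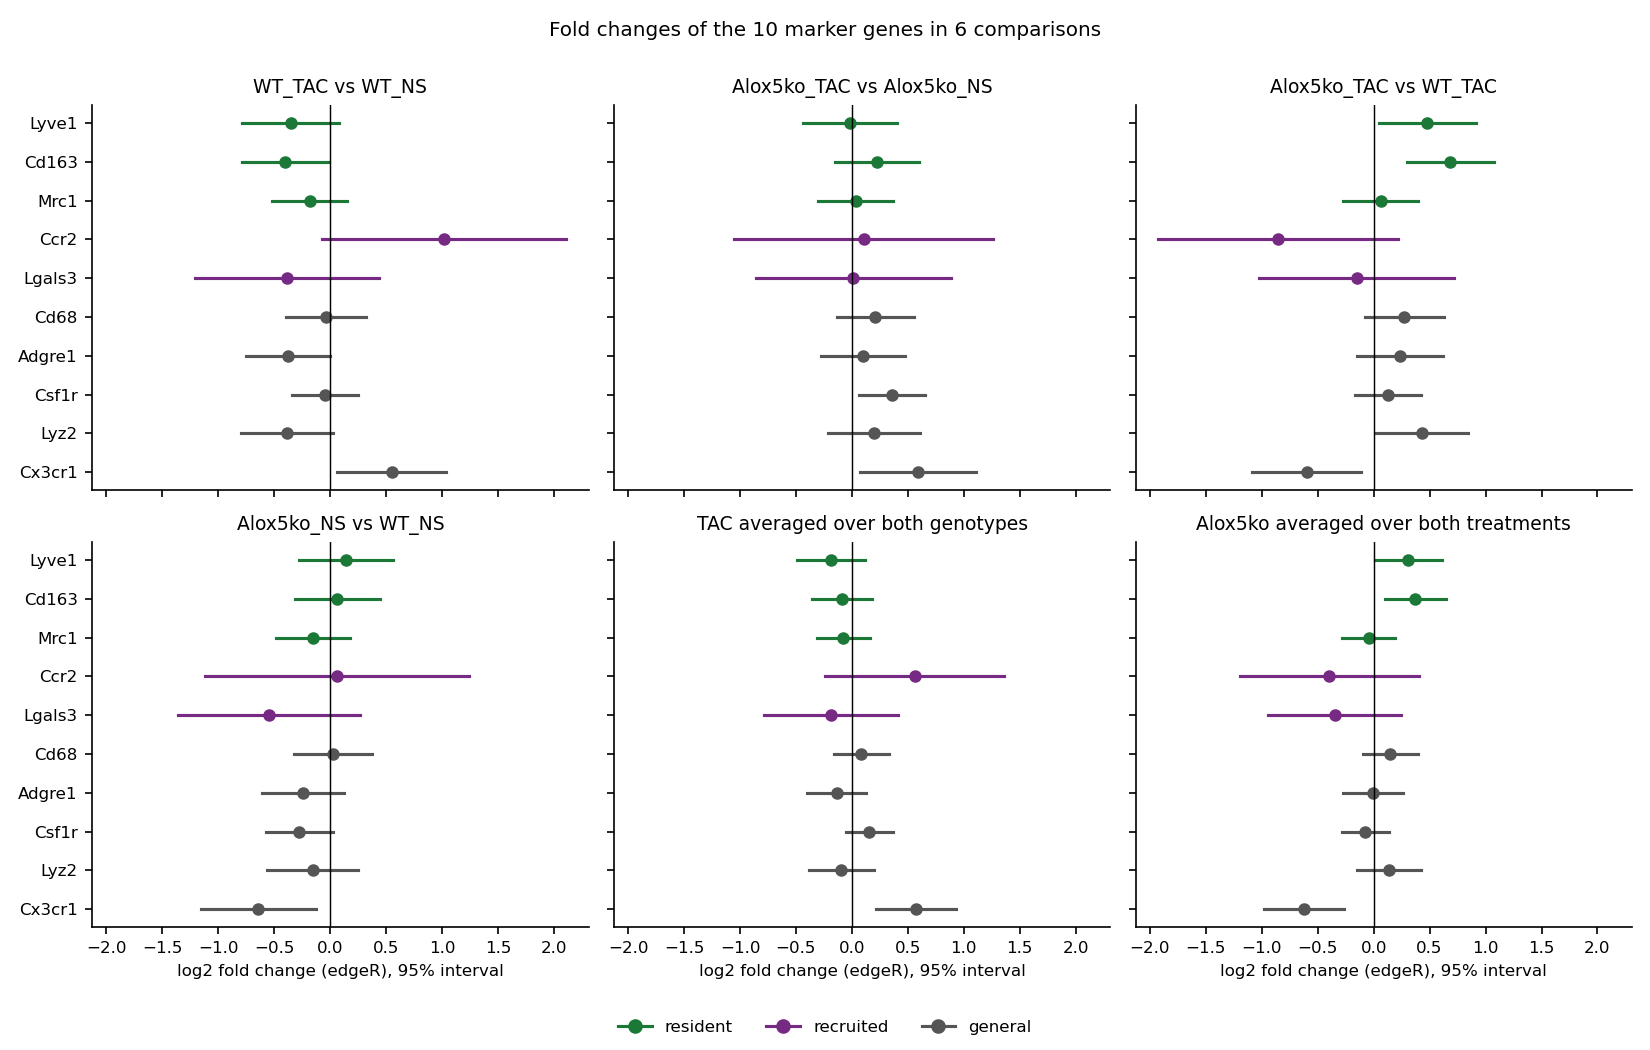
Log2 fold change (x axis, edgeR) of each marker in 6 comparisons, with points for the estimate and lines for its 95% interval; colours give resident, recruited and general markers, and positive values mean higher in the group named first. No marker was called in any panel; Cx3cr1 lay to the right of 0 for TAC in both genotypes (0.55 and 0.59) and to the left for Alox5ko under both treatments (-0.60 and -0.64).

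For some markers no library of 1 group reached the range of the other. For TAC in WT mice these were Cx3cr1 (higher) and Lyve1 (lower), 2 of 10 against 18.9% of all genes tested. For TAC in Alox5ko mice it was Cx3cr1 (higher) alone, 1 of 10 against 18%. Between Alox5ko_TAC and WT_TAC these were Lyz2 (which overlapped in RPKM) and Lyve1 (both higher) and Cx3cr1 (lower), 3 of 10 against 12.3%. Between Alox5ko_NS and WT_NS these were Adgre1, Csf1r and Cx3cr1 (all lower), 3 of 10 against 13.6%. Over the 10 markers, TAC gave 9 positive and 1 negative fold change in Alox5ko mice (median 0.15) and 2 positive and 8 negative in WT mice (median -0.27). Of all genes tested, 49.3% and 50.9% were positive in these comparisons. The interaction was positive for 9 of 10 markers (median 0.37), against 48.8% of all genes tested (median -0.01), and none of the 9 passed the test. Several markers varied together across the libraries, so these signs are not independent of each other.

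Libraries of 1 group often differed in many markers at once. WT_TAC replicate 1 was the highest of its group for 8 of 10 markers, and its summed fibroblast markers were also the highest of the 12 libraries (589.8 CPM, against 333.5 and 385.2 CPM in the other WT_TAC libraries). Alox5ko_TAC replicate 1 was the lowest of its group for 9 of 10 markers, and Alox5ko_NS replicate 3 the highest of its group for 7 of 10. The part of these library differences in the comparisons was not tested, beyond leaving each library out.

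Promoters are shown for Cx3cr1 and Cd163, the 2 markers that DESeq2 called, and for Mrc1, the resident marker that was the most even across groups. They cover 250 bases before to 50 bases after the gene start in RefSeq (GRCm38.p6), whose table held 7 of the 10 markers. Adgre1, Csf1r and Lyve1 were not among them. Capitals mark the core GAGGAA or its reverse complement TTCCTC, bound by the macrophage factor PU.1, and the core TGTGGT or its reverse complement ACCACA, bound by Runx factors, since the series title names Runx2. Both strands were searched, and no match of one motif overlapped a match of the other.
Cx3cr1, chr9:120068247-120068546, minus strand: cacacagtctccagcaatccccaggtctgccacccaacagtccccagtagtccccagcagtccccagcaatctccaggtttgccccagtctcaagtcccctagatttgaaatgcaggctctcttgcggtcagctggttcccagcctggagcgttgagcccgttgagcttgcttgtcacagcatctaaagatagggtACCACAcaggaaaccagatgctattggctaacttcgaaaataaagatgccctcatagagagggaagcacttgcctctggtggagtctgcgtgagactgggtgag
Cd163, chr6:124304401-124304700, plus strand: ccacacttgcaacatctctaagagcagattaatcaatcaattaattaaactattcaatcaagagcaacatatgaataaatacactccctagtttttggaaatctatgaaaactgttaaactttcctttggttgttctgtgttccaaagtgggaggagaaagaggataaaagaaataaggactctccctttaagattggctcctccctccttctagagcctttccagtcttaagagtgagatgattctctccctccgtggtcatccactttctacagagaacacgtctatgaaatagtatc
Mrc1, chr2:14229164-14229463, plus strand: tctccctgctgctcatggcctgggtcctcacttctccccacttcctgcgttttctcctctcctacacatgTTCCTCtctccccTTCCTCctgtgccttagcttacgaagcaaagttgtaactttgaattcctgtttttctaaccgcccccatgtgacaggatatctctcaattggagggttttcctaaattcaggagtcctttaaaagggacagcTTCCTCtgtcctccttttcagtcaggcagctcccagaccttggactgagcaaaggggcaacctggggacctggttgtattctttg

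Mrc1 held 3 matches to the PU.1 core and Cx3cr1 held 1 match to the Runx core, while Cd163 held neither in this window. Among the other 4 promoters, Cd68 held 2 PU.1 cores, Lyz2 held 1 Runx core, and Ccr2 and Lgals3 held neither. The PU.1 core was present in 2 of the 7 promoters and in 28.3% of all 32851 promoters in the table. The Runx core was present in 2 of the 7 and in 16.8% of all. The Cx3cr1 start used by RefSeq lies inside the span of the deposited gene model. A match is a string of letters and not a measured binding site, and binding was not measured here.

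Recruited were set against resident markers as the mean log2 level of Ccr2 and Lgals3 minus that of Lyve1, Cd163 and Mrc1, a description for which no p was computed. It was -4.85, -4.98 and -4.81 in Alox5ko_TAC and -4.84, -4.82 and -4.90 in Alox5ko_NS, against -4.18, -3.79 and -4.17 in WT_TAC and -4.01, -4.56 and -6.06 in WT_NS. On this scale the 6 Alox5ko libraries lay within 0.17 of each other. The 3 WT_TAC libraries were above them all, and the WT_NS libraries lay on both sides. WT_TAC exceeded WT_NS by 0.83, but by 0.24 without WT_NS replicate 3, the library with 1 read of Ccr2. Alox5ko_TAC was 0.83 below WT_TAC (a difference of -0.83), and -0.90 to -0.70 with any single library left out. The SD between replicates was 0.09 in Alox5ko_TAC, 0.04 in Alox5ko_NS, 0.22 in WT_TAC and 1.06 in WT_NS. Pooled over the 4 groups it was 0.54. The size of these values depends on the scale. From deposited RPKM (pseudocount 0.1) the level was -4.02 to -3.66 in the 6 Alox5ko libraries, a wider spread than 0.17. It was -3.42 to -3.02 in WT_TAC and -4.32 to -3.25 in WT_NS.

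The ratio of summed RPKM of the 3 resident to the 2 recruited markers puts the same genes and counts on a linear scale. It is thus not separate support, and its recruited part rested on 1 to 24 counts of Ccr2 and 7 to 18 of Lgals3 per library. The ratio was 39.7, 35.98 and 36.99 in Alox5ko_TAC and 37.8, 30.4 and 41.5 in Alox5ko_NS, against 23.7, 18.7 and 21.8 in WT_TAC and 18.3, 22.2 and 61.3 in WT_NS. Resident sums were 9.40 to 13.5 RPKM in Alox5ko_TAC and 7.19 to 10.4 RPKM in WT_TAC. Recruited sums were 0.24 to 0.37 RPKM in Alox5ko_TAC and 0.36 to 0.44 RPKM in WT_TAC. Cx3cr1 over Adgre1, both general markers, was 0.81, 0.79 and 1.03 in Alox5ko_TAC and 0.72, 0.87 and 0.29 in Alox5ko_NS, against 1.25, 1.997 and 1.60 in WT_TAC and 0.87, 0.81 and 0.79 in WT_NS. This ratio was higher in the 3 WT_TAC libraries than in the other 9. The resident markers over Adgre1 overlapped between Alox5ko_TAC and WT_TAC. Lyve1 over Adgre1 was 4.75 to 5.57 in Alox5ko_TAC and 3.90 to 5.52 in WT_TAC. In the same order, Cd163 over Adgre1 was 2.10 to 3.52 and 1.88 to 2.29, and Mrc1 over Adgre1 was 1.32 to 2.15 and 1.74 to 2.29.

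**Figure D3:**
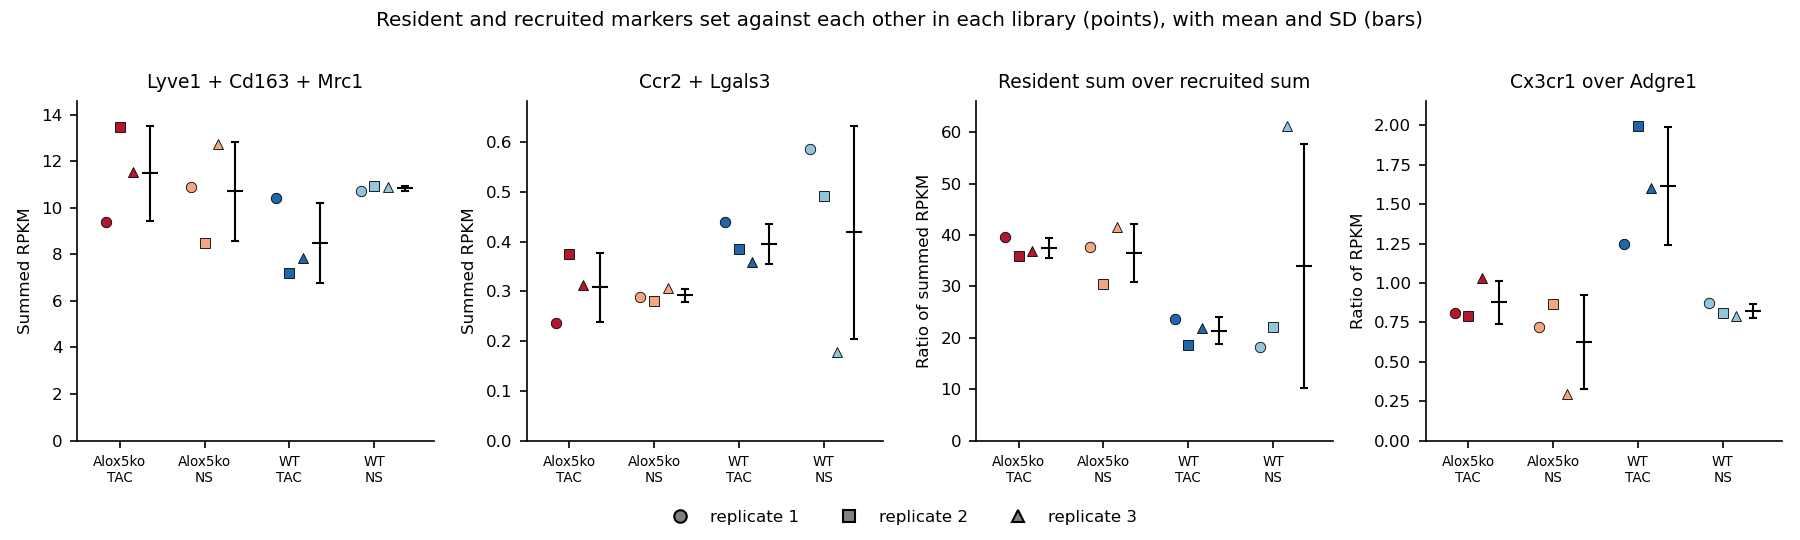
Summed RPKM of the resident and of the recruited markers, their ratio, and the RPKM ratio of Cx3cr1 to Adgre1 (y axes from 0) in the 12 libraries; points are libraries and bars the mean and SD of 3. The resident to recruited ratio was 30.4 to 41.5 in the 6 Alox5ko libraries and 18.7 to 23.7 in WT_TAC, while WT_NS ran from 18.3 to 61.3.

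Further genes of the same cells gave few calls. Of 24 other macrophage genes 23 were tested and none was called in any comparison. With TAC, 21 of 23 were positive and 2 negative in Alox5ko mice (median 0.16), and 7 were positive and 16 negative in WT mice (median -0.09). Alox5ko_NS against WT_NS gave 4 positive and 19 negative (median -0.13), and Alox5ko_TAC against WT_TAC gave 18 positive and 5 negative (median 0.12). Of all genes tested, 49.3%, 50.9%, 50.4% and 48.5% were positive in these comparisons, in the order given. The comparisons share groups and the genes mark the same cells, so the signs are not independent of each other. This holds for the lists below as well. The macrophage genes of lowest adjusted p were Ptprc, Fcgr1 and Tyrobp. Ptprc, the common leukocyte antigen CD45, had TAC differences of 0.36 in Alox5ko mice (edgeR adjusted p = 0.268) and -0.23 in WT mice (edgeR adjusted p = 0.595). Fcgr1, the high-affinity IgG receptor, had 0.87 in Alox5ko mice (edgeR adjusted p = 0.306) and 0.67 in WT mice (edgeR adjusted p = 0.57). Tyrobp, the signalling adaptor of myeloid receptors, had 0.48 in Alox5ko mice (edgeR adjusted p = 0.488; 0.28 without Alox5ko_NS replicate 2) and -0.13 in WT mice (edgeR adjusted p = 0.92).

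Among 16 other resident macrophage genes 14 were tested. Vsig4 was called for TAC averaged over both genotypes, where 5.1% of all genes tested were called. No other gene of this list was called in any comparison. Vsig4 encodes a complement receptor of tissue macrophages. It had 10, 21 and 17 counts in Alox5ko_TAC and 14, 3 and 5 in Alox5ko_NS, and 26, 15 and 8 in WT_TAC and 5, 4 and 2 in WT_NS. The WT groups did not overlap (as for 18.9% of all genes tested), while Alox5ko_NS replicate 1 lay inside the Alox5ko_TAC range. Vsig4 rose by 1.74 on the log2 scale (SE 0.403, edgeR adjusted p = 0.0159). The call was lost without WT_TAC replicate 1 (1.47, edgeR adjusted p = 0.0562) and without WT_NS replicate 3 (1.60, edgeR adjusted p = 0.0538). With TAC the 14 genes gave 8 positive and 6 negative in Alox5ko mice (median 0.02) and 6 positive and 8 negative in WT mice (median -0.16).

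Of 16 other monocyte and recruited macrophage genes only 8 were tested, and none was called. With TAC, 6 of 8 were positive in Alox5ko mice (median 0.22) and 3 of 8 in WT mice (median -0.09). Il1b, the inflammatory cytokine interleukin-1 beta, had 7, 6 and 12 counts in Alox5ko_NS against 28, 27 and 14 in WT_NS, groups that did not overlap (log2 fold change -1.61, SE 0.429, edgeR adjusted p = 0.439). Of all genes tested, 13.6% did not overlap between these 2 groups. Arg1, an arginase of reparative macrophages, had the largest fold change of the named genes of this list between Alox5ko_TAC and WT_TAC (1.31, SE 0.541, edgeR adjusted p = 0.533). It had 12, 28 and 66 counts in Alox5ko_TAC, against 21, 13 and 9 in WT_TAC, groups that overlapped. Without Alox5ko_TAC replicate 3 the value was 0.44, and edgeR without the filter on low counts gave an adjusted p of 0.0171. Gpnmb, a glycoprotein of lipid-laden macrophages, had TAC differences of 0.93 in Alox5ko mice (edgeR adjusted p = 0.306) and 0.55 in WT mice (edgeR adjusted p = 0.668), the WT value being 0.21 without WT_TAC replicate 1, 0.23 without WT_NS replicate 1 and 1.05 without WT_NS replicate 2.

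The 7 genes of MHC class II antigen presentation were all tested and none was called. With TAC in WT mice 6 of 7 were negative (median -0.39), as were 6 of 7 in Alox5ko_NS against WT_NS (median -0.38). With TAC in Alox5ko mice 5 of 7 were positive (median 0.07), as were 5 of 7 in Alox5ko_TAC against WT_TAC (median 0.04). H2-Ab1, a beta chain of MHC class II, was 49.9, 50.1 and 54.9 CPM in the Alox5ko_NS libraries and 65.6, 48.1 and 43.0 CPM in WT_TAC, against 70.3, 63.7 and 78.8 CPM in WT_NS. Alox5ko_NS lay wholly below WT_NS (13.6% of all genes tested did not overlap there), while WT_TAC replicate 1 overlapped WT_NS. WT_TAC minus WT_NS was -0.44 (SE 0.147, edgeR adjusted p = 0.217), and -0.64 without WT_TAC replicate 1, where the edgeR adjusted p was 0.0217. Cd74, the invariant chain, had -0.39 (edgeR adjusted p = 0.271), and -0.59 without that library (edgeR adjusted p = 0.037). H2-Eb1, another beta chain, had -0.29 (edgeR adjusted p = 0.488), and -0.57 without it (edgeR adjusted p = 0.0327).

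**Figure D4:**
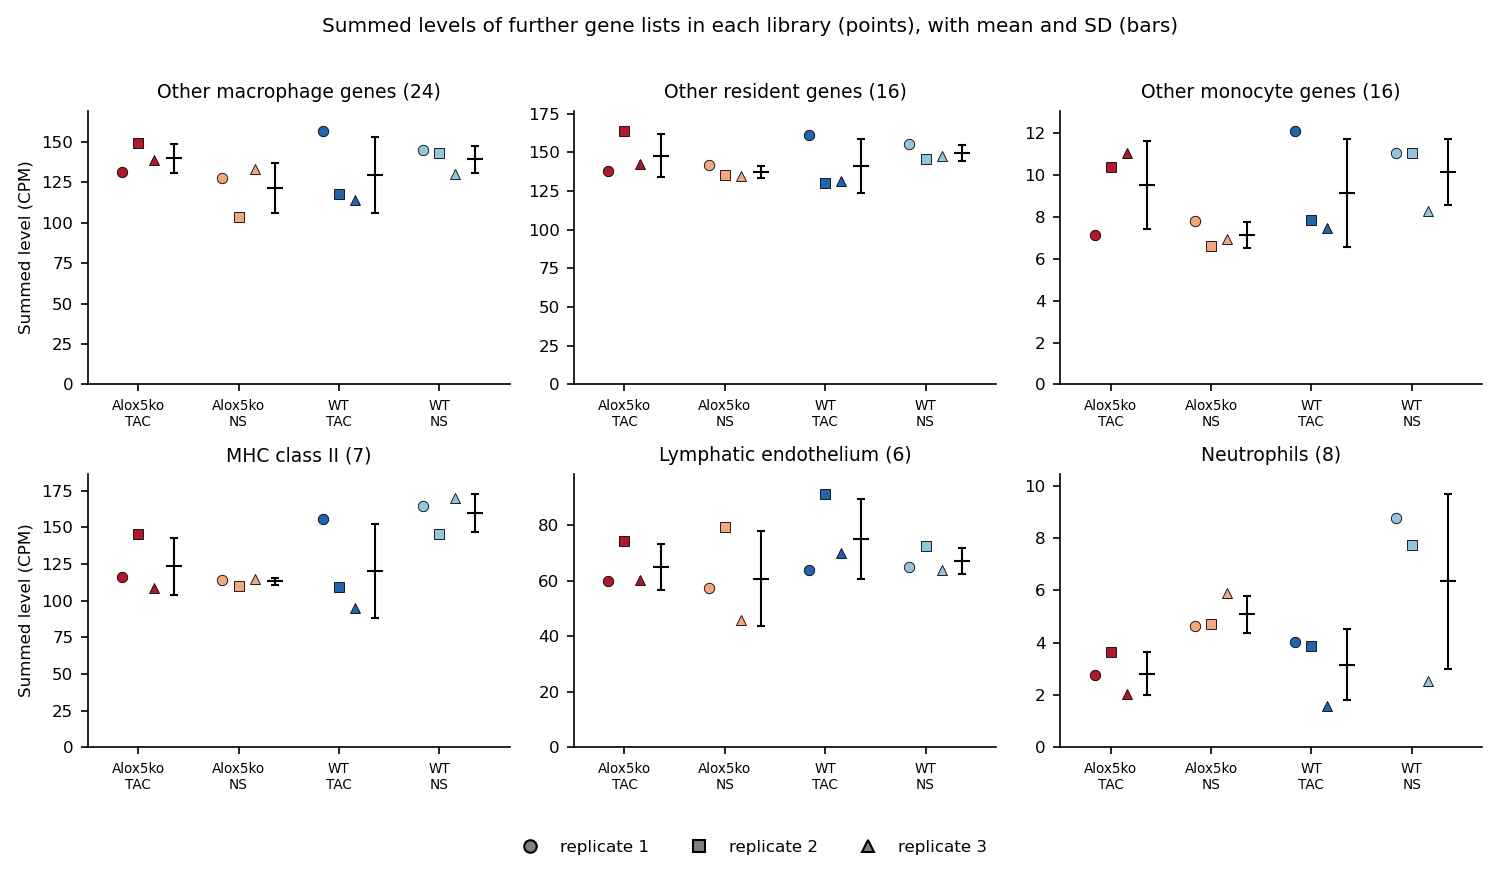
Summed level (CPM of the library total, y axis from 0) of 6 further gene lists in the 12 libraries, with the number of genes listed in brackets; points are libraries and bars the mean and SD of 3. MHC class II genes summed to 110.1 to 114.9 CPM in Alox5ko_NS and to 145.4 to 169.9 CPM in WT_NS, and WT_TAC replicate 1 was the highest of its group in the macrophage, resident, monocyte and MHC lists.

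Of 7 ligands and chemokines that act on these receptors, 4 were tested and none was called. Csf1, the growth factor for the Csf1r receptor, had TAC differences of 0.28 in Alox5ko mice (edgeR adjusted p = 0.651) and 0.21 in WT mice (edgeR adjusted p = 0.802). The WT value was 0.60 without WT_NS replicate 2 (edgeR adjusted p = 0.04). Il34, the second Csf1r ligand, had 0.67 in Alox5ko mice (edgeR adjusted p = 0.544; 0.30 without Alox5ko_NS replicate 3 and 1.29 without replicate 1) and -0.29 in WT mice (edgeR adjusted p = 0.886). Ccl2, the ligand of CCR2, had -0.87 in Alox5ko mice (edgeR adjusted p = 0.557) and -0.35 in WT mice (edgeR adjusted p = 0.904). It had 10, 8 and 4 counts in Alox5ko_TAC, against 7, 7 and 31 in Alox5ko_NS, and the Alox5ko value turned to 0.33 without Alox5ko_NS replicate 3. The WT value turned to 0.13 without WT_NS replicate 2.

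Markers of other cells that share genes with the 10 markers were summed beside them. The 6 lymphatic endothelial markers, which bear on Lyve1, summed to 60.0 to 74.4 CPM in Alox5ko_TAC and 45.8 to 79.3 CPM in Alox5ko_NS, and to 63.7 to 91.3 CPM in WT_TAC and 63.9 to 72.4 CPM in WT_NS. None was called, and 5 of 6 were positive for TAC in WT mice, where Lyve1 was negative. Neutrophil markers, which bear on Lyz2, summed to 2.03 to 3.66 CPM in Alox5ko_TAC and 4.63 to 5.88 CPM in Alox5ko_NS, which did not overlap, and to 1.59 to 4.02 CPM in WT_TAC and 2.54 to 8.77 CPM in WT_NS, which did. Ly6g was at 0 in all libraries. Of the 8 genes 2 were tested, both were negative for TAC in each genotype (median -0.96 in both), and neither was called. With TAC averaged over both genotypes, Csf3r, the receptor for the growth factor G-CSF, had -0.92 (edgeR adjusted p = 0.0784) and S100a9, a subunit of calprotectin, had -1.01 (edgeR adjusted p = 0.148). In edgeR Csf3r passed without the filter on low counts (adjusted p = 0.00376), without Alox5ko_TAC replicate 2 (0.0496) and without WT_TAC replicate 1 (0.0162), and S100a9 passed without WT_NS replicate 3 (-1.21, adjusted p = 0.00627). For TAC in Alox5ko mice S100a9 passed with only the libraries compared (edgeR adjusted p = 0.04). Of the markers of dendritic, T, B and mast cells, 2 of 7, 1 of 7, 1 of 5 and 0 of 5 were tested, and none was called. Their part in the macrophage results was not tested.

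Endothelial markers summed to 347.3 to 450.2 CPM in Alox5ko_NS, against 488.1 to 531.6 CPM in WT_NS, and 7 of 7 were negative in that comparison (median -0.25, none called), beside the 6 of 10 negative macrophage markers. Fibroblast markers were positive for TAC in 6 of 7 genes in Alox5ko mice and 7 of 7 in WT mice. Pi16, a fibroblast peptidase inhibitor, rose by 1.16 in Alox5ko mice (edgeR adjusted p = 0.019) and by 1.49 in WT mice (edgeR adjusted p = 0.00793). These calls were lost without Alox5ko_NS replicate 2 (1.11, adjusted p = 0.0899) or 3 (1.12, adjusted p = 0.0813), and without WT_NS replicate 3 (1.42, adjusted p = 0.0507). Of all genes tested, 1.34% were called for TAC in Alox5ko mice and 0.766% in WT mice. Lum (0.62, adjusted p = 0.0487), Cilp (2.38, adjusted p = 0.0153) and Thbs4 (2.76, adjusted p = 0.0334), genes of fibroblast matrix, rose with TAC averaged over both genotypes in edgeR. In that comparison 5.1% of all genes tested were called. Lum lost its call without 8 of the 12 libraries, Thbs4 without 9 and Cilp without 1. With the replicate number as a block Thbs4 also lost its call (2.57, edgeR adjusted p = 0.0642).

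Across the 12 libraries, levels of the markers varied together to different degrees, given as a description since libraries share depth and group. The log2 levels of Lyve1 had a Pearson r of 0.84 with Lyz2, 0.79 with Cd163, 0.49 with Mrc1 and -0.70 with Cx3cr1. Ccr2 had r between -0.25 and 0.46 with the other 9 markers, at its low counts. Of 10366 other genes, the 3 most like Lyve1 were Ccl6 (0.94), Ccl9 (0.90) and Ctla2b (0.90). Those most like Cd163 were Ifrd1 (0.87), Wt1 (0.86) and Mylip (0.85), and those most like Mrc1 were Scn7a (0.90), Gsn (0.89) and Ptprj (0.89). Those most like Ccr2 were Psma5 (0.89), Ntan1 (0.87) and Brap (0.87), and those most like Lgals3 were Cmtm6 (0.88), Stk17b (0.82) and Gnpnat1 (0.78).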

How the data were processed

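RNA was sequenced from 12 mouse left ventricle libraries. Per the labels' protocols, polyadenylated RNA went into directional libraries read as 150-bp pairs. HISAT2 and DESeq2 and the builds GRCh38 and mm10 are named, per the submitters' processing notes; the counting program and its strand setting are not given in the sources used here. The authors deposited raw counts per gene and RPKM values with gene lengths. All 336840 RPKM values equalled counts over length and library total within 0.1%. Of 49492 rows, 28070 had a count; in 26 rows the symbol had become a date, and these were kept in the tests but not named.

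Counts were filtered with filterByExpr (minimum count 10, minimum total 15), scaled by TMM and fitted with edgeR 4.0.16 (quasi-likelihood, robust, 1 coefficient per group, all 12 libraries) with limma 3.58.1 in R 4.3.3. P-values were adjusted over 15542 genes, and 0.05 was the threshold. The common biological coefficient of variation was 0.107 and TMM factors were 0.945 to 1.035. Intervals are 95% intervals of the fit. Library totals of 20889431 to 27311196 counts make 1 read worth 0.0366 to 0.0479 CPM. The fit was tested on simulated data. The smallest p an exact two-sided permutation test allows for 3 against 3 libraries is 0.1, so none is given. Replicates differed by more than sampling noise (chi-square per gene of 5.39 to 31.8), and each was counted as its own sample.

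Deviations from the group means of same-numbered libraries correlated by 0.155 to 0.201 in the 3 pairs of WT_TAC and WT_NS. In each other pair of groups at least 1 correlation was below 0.1 (range -0.26 to 0.25). Libraries of different number were not compared, so this check cannot decide whether the numbers pair samples. Alternatives were RLE scaling, DESeq2 1.42.0, no filter on low counts, only the libraries compared, a replicate block (over all libraries or, added later, within WT), and leaving out each library; for the recruited minus resident level also a prior count of 0.5 (in place of 2) and deposited RPKM with a pseudocount of 0.1. All 10 markers were named in each comparison; from each other list every called gene was named, otherwise up to 3 of lowest adjusted p, and for 5 markers the 3 genes of highest r with a mean log2 CPM of at least 1. The markers and lists were chosen with earlier results of these data known.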

Additional observations from a re-analysis of the deposited data

How the results depend on the processing

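Of 1170 marker fold changes recomputed under the alternatives, 1151 stayed on the same side of the threshold and 19 were newly past it, 12 of them without the filter on low counts, 3 with DESeq2 and 4 with a library left out. The sign differed in 44, all of them at reported values of at most 0.40 in size and none past the threshold. Without the filter, edgeR called 538 genes for TAC in WT mice (119 with it), 756 for TAC in Alox5ko mice (209), 252 between Alox5ko_TAC and WT_TAC (17), 116 between Alox5ko_NS and WT_NS (6), 83 for the interaction (0), 1331 for TAC averaged (792) and 348 for Alox5ko averaged (24); markers called were 3, 1, 4, 0, 0, 1 and 3. DESeq2 called 285, 373, 59, 24 and 1 genes in the first 5 of these comparisons and 99 for Alox5ko averaged, with 1 marker each between Alox5ko_TAC and WT_TAC, for TAC averaged and for Alox5ko averaged. With only the libraries compared, 215 genes were called for TAC in WT mice, 39 between Alox5ko_TAC and WT_TAC and 18 between Alox5ko_NS and WT_NS, and no marker. The cause of these differences in counts was not tested.

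With single libraries left out, genes called ran from 17 (without WT_NS replicate 1) to 182 for TAC in WT mice, from 60 (without Alox5ko_TAC replicate 1) to 379 for TAC in Alox5ko mice, from 10 (without Alox5ko_TAC replicate 3) to 28 between Alox5ko_TAC and WT_TAC and from 2 (without Alox5ko_NS replicate 1) to 7 between Alox5ko_NS and WT_NS. They ran from 0 to 1 for the interaction, from 407 (without WT_NS replicate 3) to 990 for TAC averaged and from 15 (without WT_NS replicate 1) to 44 for Alox5ko averaged. Markers called ran from 0 to 1 between Alox5ko_TAC and WT_TAC (Cd163) and for TAC averaged (Cx3cr1), and stayed at 0 in the other 5 comparisons. The recruited minus resident level ran from 0.24 to 1.26 for WT_TAC minus WT_NS, from -0.57 to 0.45 for Alox5ko_NS minus WT_NS and from -1.29 to -0.26 for the interaction, where 0.24, -0.57 and -0.26 came without WT_NS replicate 3. RLE scaling changed no call of a marker. With the replicate number as a block, 110, 170, 21, 6, 0, 773 and 29 genes were called in the 7 comparisons, in the order given first, and no marker. A block within the WT libraries alone, added after seeing the data, gave 132 genes and no marker for TAC in WT mice. Among the genes named, the block over all libraries ended the Thbs4 call for TAC averaged (2.57, adjusted p = 0.0642).

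Depth limits Ccr2 and Lgals3 most, at 1 to 24 counts per library. With 3 libraries a group, the markers' standard errors for a comparison of 2 groups were 0.141 to 0.561 on the log2 scale. A Cd163 difference of 0.69 with a standard error of 0.181 did not pass the threshold, so differences of several standard errors could be missed.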
